A study of Mus musculus with 4 samples.

Results

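Cells take up glucose and amino acids through transporters of the plasma membrane, and most of these belong to the solute carrier (Slc) families. T cells raise several of them when they grow or are activated, and the proteins are kept at the surface or sent to lysosomes by sorting in endosomes, where ubiquitin on the cargo is a signal for degradation. USP8 is a deubiquitinase that acts on endosomes. The arrays measured the transcripts of the transporters, not the proteins or their place in the cell.

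The 10 nutrient transporter genes described here were Slc2a1 and Slc2a3 (glucose), Slc3a2, Slc7a5 and Slc7a6 (amino acid transporters that work as heavy and light chains), Slc1a5, Slc38a1 and Slc38a2 (neutral amino acids, glutamine among them), Slc7a1 (cationic amino acids) and Slc16a1 (lactate and other monocarboxylates). All non-control probes carrying one of these names were taken, 25 of the 41174 probes on the array, so that the members were 10 of 28482 gene names. Of these, 21 were well above background on all 4 arrays and passed the filter on dim probes, and at least 1 probe of each of the 10 genes was among them. The other 4 probes did not stand well above background on a single array.

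RNA came from sorted CD4+CD8+ double-positive (DP) thymocytes of untreated mice aged 6 to 12 weeks, sex-matched littermates whose Usp8 alleles were flanked by loxP sites. The control group, USP8ff, carried no Cre, and the other group, USP8ff_CD4Cre, carried Cre under Cd4 regulatory sequences, which act from the DP stage onward. Each group had 2 samples, each a pool of 2 mice (8 mice in all), so p-values measure the spread between pools. Since Cre was never present alone, its own effect and that of losing Usp8 cannot be told apart. In a sorted bulk sample, fewer cells of a type and less RNA per cell cannot be told apart.

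Between 45.0% and 48.9% of probes were well above background on each array, and no spot was saturated. Usp8 itself had a log2 difference of -0.81 ± 0.13 (SE) in USP8ff_CD4Cre against USP8ff, which left 56.9% of the control signal (limma adjusted p = 0.60). The sources used here do not say whether its probe lies inside the deleted part. All values below are log2 signals relative to the 75th percentile of the same array, so that 0 marks this percentile, and all differences are USP8ff_CD4Cre minus USP8ff with their standard errors. Levels of different genes are not compared, since each probe has its own response.

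None of the 10 transporters passed the test between genotypes. In limma, 0 of 13062 genes had an adjusted p under 0.05 (0%), and the members' adjusted p ran from 0.66 to 0.99. At an unadjusted p under 0.05 there was 1 member, Slc7a1, with a higher value in USP8ff_CD4Cre, against 970 of all genes (7.43%), or 3.97% higher and 3.46% lower. That count over all genes was 396 without USP8ff_CD4Cre replicate 2, and median scaling turned the split from 518 higher and 452 lower to 337 and 485. The members' differences ran from -0.18 to 0.42, or from 88.0% to 133.6% of the control signal, with 6 positive, against 54.8% of all genes, and 4 negative. Their median was 0.04, against 0.02 over all genes, and it was -0.01 with quantile normalization, -0.0061 with the mean of each gene's probes and -0.03 without USP8ff replicate 2. Leaving out USP8ff replicate 1 gave a median of 0.16 and leaving out USP8ff_CD4Cre replicate 2 gave 0.08, and the count of positive members ran from 4 to 8 over the settings.

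**Figure D1:**
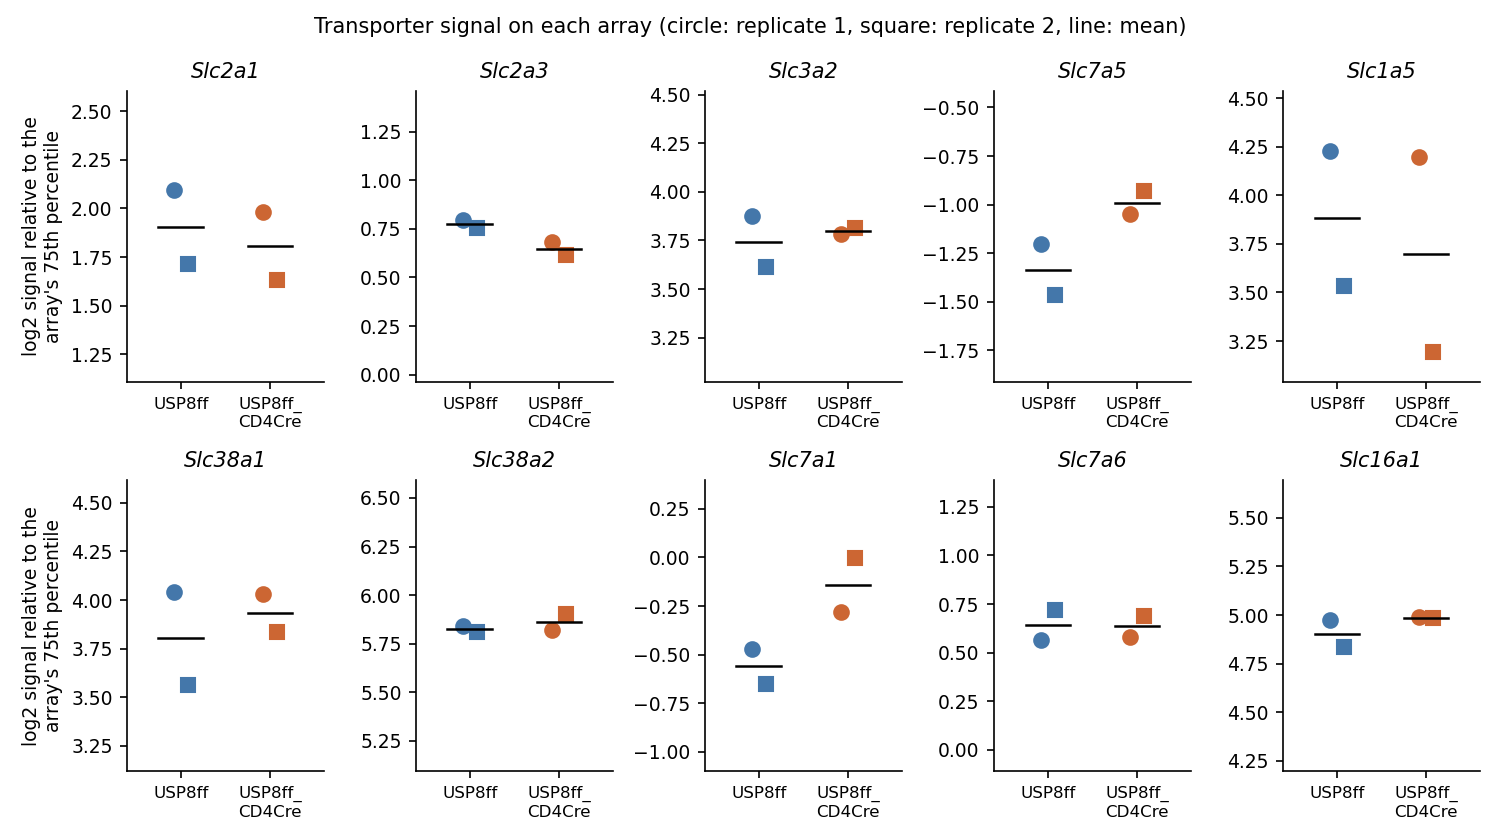
Each panel shows the log2 signal of a transporter gene, relative to the 75th percentile of its array, in the 2 USP8ff pools (blue) and the 2 USP8ff_CD4Cre pools (orange), with circles for replicate 1, squares for replicate 2 and a line at the mean; every axis spans the same range of log2 units. The Slc7a1 and Slc7a5 pools of the 2 genotypes lie apart, with differences of 0.42 and 0.35, while the pools of Slc1a5 lie far apart within each genotype.

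The pools of the 2 genotypes did not overlap for 4 members, 3 of them higher and 1 lower in USP8ff_CD4Cre, against 40.6% of all genes (24.3% higher and 16.3% lower). For 3 members, Slc7a1, Slc7a5 and Slc2a3, the difference between genotype means was larger than the gap between pools in either genotype, which held for 27.3% of all genes. The median absolute difference was 0.11 over the members and 0.12 over all genes. The median gap between pools was 0.22 in USP8ff and 0.11 in USP8ff_CD4Cre over the members, and 0.15 and 0.13 over all genes.

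**Figure D2:**
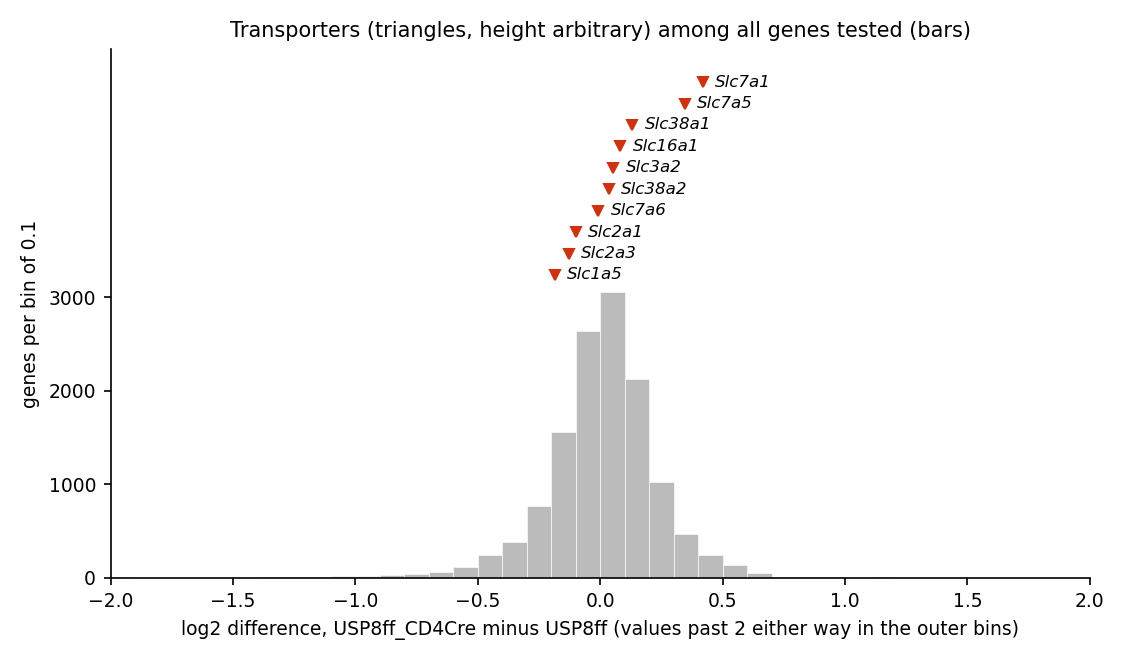
The bars count the 13062 genes tested by their log2 difference between genotypes in bins of 0.1, and the triangles mark the 10 transporters at their own differences, at heights that carry no value. The transporters lie between -0.18 and 0.42, within the range in which most genes lie.

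Slc2a1 encodes GLUT1, the basal glucose transporter of most cells. The USP8ff pools had log2 signals of 2.10 and 1.71, and the USP8ff_CD4Cre pools 1.98 and 1.63. The pools of the 2 genotypes overlapped, and replicate 1 was the higher pool in each. The difference was -0.10 ± 0.19 (95% interval -0.58 to 0.39, limma adjusted p = 0.92), but 0.09 with USP8ff replicate 1 left out and 0.07 with USP8ff_CD4Cre replicate 2 left out.

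Slc2a3 encodes GLUT3, a glucose transporter of high affinity found in neurons and lymphocytes. Its probe near the 3' end (chr6:122678075-122678134, mm9) had 0.80 and 0.75 in USP8ff and 0.68 and 0.61 in USP8ff_CD4Cre. Both USP8ff_CD4Cre pools lay below both USP8ff pools, and the pools of each genotype lay close together. The difference was -0.13 ± 0.10 (95% interval -0.40 to 0.14, adjusted p = 0.78). The other probes with this name were dim, not well above background on any of the arrays, and the scanner files place 1 of them on chromosome 17, away from the other 2 on chromosome 6.

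Slc3a2 encodes the heavy chain CD98, which brings several amino acid exchangers to the cell surface, Slc7a5 and Slc7a6 among them. Its brighter probe had 3.88 and 3.61 in USP8ff and 3.78 and 3.81 in USP8ff_CD4Cre, so that the USP8ff_CD4Cre pools lay between the USP8ff pools. The difference was 0.05 ± 0.13 (95% interval -0.28 to 0.39, adjusted p = 0.93), with -0.0080 under quantile normalization and -0.08 without USP8ff replicate 2. The probe at base 145 of the transcript gave 0.03 ± 0.14.

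Slc7a5 encodes LAT1, the light chain that exchanges leucine and other large neutral amino acids. The USP8ff pools had log2 signals of -1.20 and -1.47, and the USP8ff_CD4Cre pools -1.05 and -0.93. Both USP8ff_CD4Cre pools lay above both USP8ff pools. The difference was 0.35 ± 0.14 (95% interval -0.00049 to 0.69), a ratio of 1.27, with an unadjusted p of 0.0502 and an adjusted p of 0.67 in limma. It was 0.21 without USP8ff replicate 2, and 0.23 with the normexp background.

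Slc7a6 encodes y+LAT2, another light chain, which exchanges cationic for neutral amino acids. It had 0.57 and 0.72 in USP8ff and 0.58 and 0.69 in USP8ff_CD4Cre, with the USP8ff_CD4Cre pools between the others. The difference was -0.0075 ± 0.12 (95% interval -0.31 to 0.29, adjusted p = 0.99). The other probe kept gave 0.0097 ± 0.15, and the one that was dim on all arrays was designed to a cDNA clone. The heavy chain and its 2 light chains therefore had differences of 0.05, 0.35 and -0.0075, and the differences were not tested against each other.

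Slc7a1 encodes CAT1, which carries arginine and lysine into the cell. The USP8ff pools had log2 signals of -0.47 and -0.65, and the USP8ff_CD4Cre pools -0.28 and -0.0014. Both USP8ff_CD4Cre pools lay above both USP8ff pools, with a larger gap between the USP8ff_CD4Cre pools (0.28) than between the USP8ff pools (0.18). The difference was 0.42 ± 0.15 (95% interval 0.05 to 0.79), a ratio of 1.34, with an unadjusted p of 0.034 and an adjusted p of 0.66 in limma. Its sign was the same in all 14 other settings, and the unadjusted p stayed under 0.05 in 10 of them. It was 0.28 without USP8ff_CD4Cre replicate 2 (unadjusted p = 0.18), 0.33 without USP8ff replicate 2 (0.13), 0.41 with median scaling (0.056) and 0.42 with no filter (0.091).

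The value of Slc7a1 rests on 1 probe. This probe lies at base 6917 of its transcript, and the position the scanner file gives it (chr5:149138970-149139003, mm9, minus strand) spans 34 bases of its 60. The other Slc7a1 probe, at base 2285, stood well above background on 0 of the 4 arrays, with -5.35 and -5.43 in USP8ff and -5.02 and -5.01 in USP8ff_CD4Cre. The first 30 bases of both and of the Slc7a5 probe (chr8:124405142-124405201, mm9, minus strand) are printed 5′ to 3′. The first and the last gave the largest differences among the members, and the second is the dim Slc7a1 probe.
Slc7a1 probe, base 6917: ttaagtccgatactaactgtaaatcagctg
Slc7a1 probe, base 2285: tgagatcctggtcatttctggacagtccct
Slc7a5 probe, base 3357: agtgctgtggttgtaatgtcttttactatt

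Slc1a5 encodes ASCT2, an exchanger of glutamine and other small neutral amino acids. The USP8ff pools had log2 signals of 4.23 and 3.54, and the USP8ff_CD4Cre pools 4.198 and 3.19. The pools of a genotype lay 0.69 and 1.004 apart, wider than for any other member, and the genotypes overlapped. The difference was -0.18 ± 0.39 (95% interval -1.19 to 0.82, adjusted p = 0.92), and as a ratio the interval runs from 0.438 to 1.77. Leaving out USP8ff replicate 1 turned it to 0.16, and leaving out USP8ff_CD4Cre replicate 2 to 0.32.

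Slc38a1 encodes SNAT1, which takes up glutamine together with sodium. Its brightest probe had 4.04 and 3.56 in USP8ff and 4.03 and 3.84 in USP8ff_CD4Cre, with the USP8ff_CD4Cre pools between the USP8ff pools. The difference was 0.13 ± 0.19 (95% interval -0.36 to 0.62, adjusted p = 0.88), and it was -0.11 without USP8ff replicate 2. All 5 Slc38a1 probes had positive differences, from 0.10 to 0.22, at positions from base 2748 to base 7482 of the transcript. They share their target and their pools, and so do not count as separate replicates.

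Slc38a2 encodes SNAT2, a related sodium-coupled transporter that is known to rise when amino acids run short. Its brightest probe had 5.84 and 5.81 in USP8ff and 5.82 and 5.90 in USP8ff_CD4Cre. The 4 values lay within a narrow range and overlapped, with a difference of 0.03 ± 0.11 (95% interval -0.24 to 0.30, adjusted p = 0.95). The other 3 probes gave -0.08, -0.09 and -0.0039, and the mean of the 4 probes gave -0.04.

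Slc16a1 encodes MCT1, which moves lactate and pyruvate together with protons. Its brightest probe had 4.97 and 4.84 in USP8ff and 4.99 and 4.98 in USP8ff_CD4Cre. Both USP8ff_CD4Cre pools lay above both USP8ff pools by a small margin, with a difference of 0.08 ± 0.11 (95% interval -0.20 to 0.36, adjusted p = 0.87). Its probes did not share a sign. The probe beside the brightest one gave 0.15 ± 0.14, while the probe at base 983 (chr3:104457083-104457142, mm9) had -1.42 and -1.53 in USP8ff and -1.84 and -1.66 in USP8ff_CD4Cre, a difference of -0.27 ± 0.13 (unadjusted p = 0.078, adjusted p = 0.76 over all probes in limma). The 3 probes together gave -0.01. The first 30 bases of each are printed because these probes of 1 gene differ in direction.
Slc16a1 probe, base 983: gtctggaaatgtggtcatgttttttggact
Slc16a1 probe, base 2875: gaggaagtttgctgagaacttgtatcatgc
Slc16a1 probe, base 2981: atgggttcagtgtaaggataagaggaaaga

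**Figure D3:**
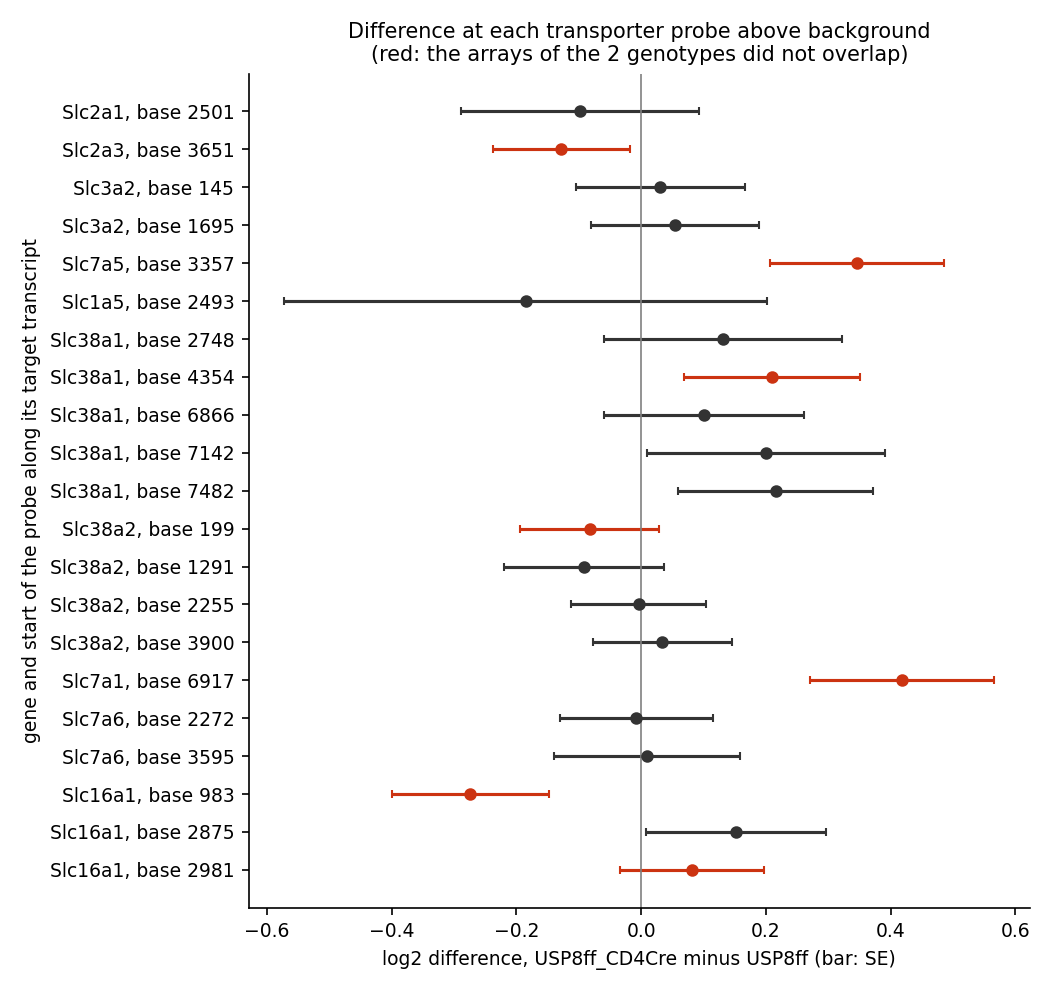
Points show the log2 difference, USP8ff_CD4Cre minus USP8ff, at each of the 21 transporter probes above background, with bars of 1 SE; the vertical axis gives the gene and where the probe starts on its target transcript, and red marks probes whose pools did not overlap between genotypes. Slc38a1 probes all lie above 0, and the Slc16a1 probe at base 983 lies at -0.27, opposite to the other 2 of that gene.

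Over the 21 probes, 13 had positive differences, against 53.1% of all probes, and 8 negative ones, with a median of 0.03 against 0.01 over all 19038 probes kept. Of these 21, 0 passed in limma with adjustment over all probes (0%), and 1 had an unadjusted p under 0.05, against 6.67% of all probes. The pools did not overlap for 7 of the 21, against 38.7% of all probes. Of the 25 transporter probes, 0 are among the 78 that the authors' deposited table lists, where the smallest fold is 2.002.

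For the 7 members other than Slc2a3, Slc7a5 and Slc7a1, the pools of at least 1 genotype lay farther apart than the genotype means. In USP8ff the replicate 1 pool was above the replicate 2 pool for 9 of the 10 members, against 6377 of 13062 genes, and in USP8ff_CD4Cre for 5 of 10, against 6469. Slc2a1, Slc2a3, Slc1a5, Slc38a1 and Slc16a1 had the higher value in replicate 1 of both genotypes. The gaps were largest for Slc1a5, and for Slc2a1 they were 0.38 and 0.35, against a genotype difference of -0.10. What set the pools apart was not tested.

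**Figure D4:**
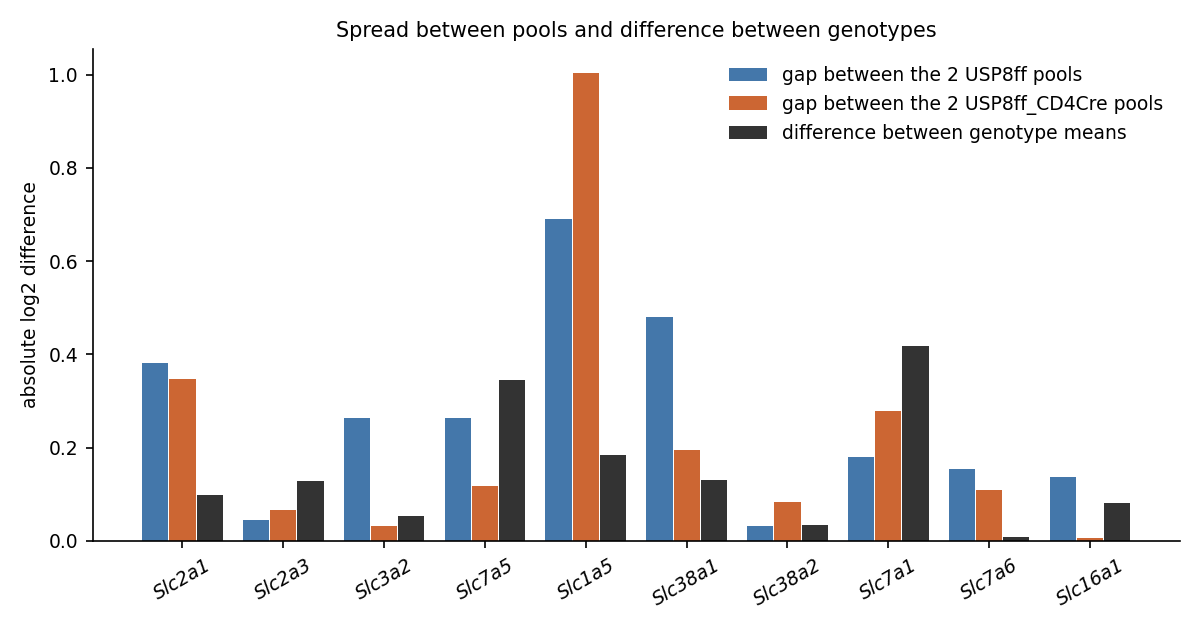
For each transporter the bars give the absolute log2 gap between the USP8ff pools (blue), the gap between the USP8ff_CD4Cre pools (orange) and the absolute difference between genotype means (dark). The dark bar is the tallest of the 3 for Slc2a3, Slc7a5 and Slc7a1, and the gaps of Slc1a5 reach 0.69 and 1.004.

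Other transporters of the same families were grouped by function. Of the 11 other hexose transporter genes on the array, 3 were measured, 1 with a positive and 2 with negative differences (median -0.17). Slc2a8, an intracellular hexose transporter, had -0.32 ± 0.12, Slc2a9, a urate transporter, -0.17 ± 0.48, and Slc2a4, the insulin-responsive GLUT4, 0.09 ± 0.37. Of the 3, 1 was lower at an unadjusted p under 0.05, against 3.46% of all genes, and 0 were higher, against 3.97%. The lower one was Slc2a8, with an adjusted p of 0.67 in limma. The signs of Slc2a9 and Slc2a4 changed when single arrays were left out. Without USP8ff replicate 1 the list's median, which is then the value of Slc2a9, was 0.55, and without USP8ff_CD4Cre replicate 2 it was 0.03.

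Of the 33 other amino acid transporter genes on the array, 13 were measured, 5 with positive and 8 with negative differences (median -0.08). At an unadjusted p under 0.05 there were 0 higher, against 3.97% of all genes, and 2 lower, against 3.46%. These were Slc7a11, the cystine and glutamate exchanger xCT (-0.64 ± 0.24), and Slc6a19, a sodium-coupled neutral amino acid transporter (-0.87 ± 0.34). Leaving out an array moved both, Slc7a11 to -0.31 without USP8ff_CD4Cre replicate 2 and -0.96 without replicate 1 of that genotype, and Slc6a19 to -0.41 without USP8ff replicate 2 and -1.32 without USP8ff replicate 1. Slc43a2, which carries large neutral amino acids, had -0.26 ± 0.13, and -0.16 without USP8ff_CD4Cre replicate 2. The adjusted p of each was at least 0.67 in limma. Slc7a11 had 1.36 and 1.10 in USP8ff and 0.91 and 0.27 in USP8ff_CD4Cre, without overlap.

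Of the 10 other monocarboxylate transporter and chaperone genes, 6 were measured, 4 with positive and 2 with negative differences (median 0.12). Slc16a6 had -0.38 ± 0.11 and Slc16a10, which carries aromatic amino acids, 0.48 ± 0.15, both with an adjusted p of 0.66, and Slc16a10 had 0.32 without USP8ff_CD4Cre replicate 2. In limma 1 gene of the 6, Slc16a10, was higher at an unadjusted p under 0.05, against 3.97% of all genes. Likewise 1, Slc16a6, was lower, against 3.46%. The chaperone gene Emb had -0.24 ± 0.10. The other chaperone, Bsg, which MCT1 needs to reach the surface and which was chosen after its value was seen, had 0.09.

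The arrestin-domain, ubiquitin ligase and endosome recycling genes that act on nutrient transporters were all measured, 18 of 18, with 12 positive and 6 negative differences (median 0.09). At an unadjusted p under 0.05 there were 0 of them, against 7.43% of all genes. Snx27, which returns GLUT1 from endosomes to the surface, had 0.30 ± 0.12, the small GTPase gene Arf6 0.20 ± 0.11 and the retromer subunit gene Vps29 0.16 ± 0.11. With the mean of probes Snx27 had 0.16 and Arf6 0.11. Txnip, an arrestin-domain inhibitor of glucose uptake, chosen after its value was seen, had -0.08.

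Transcription factors and nutrient sensors upstream of transporters had a median of 0.02 over 25 measured of 26 listed, 14 positive and 11 negative. Atf5 had 0.32 ± 0.11 (unadjusted p = 0.030, adjusted p = 0.66), the kinase gene Akt1 0.21 ± 0.12 and Rptor, a subunit of mTORC1, -0.21 ± 0.14. Rptor had -0.06 without USP8ff replicate 2 and -0.37 without USP8ff replicate 1, and Akt1 had 0.13 without USP8ff_CD4Cre replicate 2. Myc (0.19), Hif1a (0.09) and Atf4 (0.02), chosen after their values were seen, did not pass. The sign of this list's median changed with quantile normalization (-0.0090) and with the normexp background (-0.00020).

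ATF4 is a factor of the amino acid response, and Slc7a1, Slc7a5, Slc3a2 and Slc38a2 are among the transporters it is known to regulate. Of its 20 listed targets that are not transporters, 14 were measured (Asns, Chac1, Atf3, Vldlr, Stc2 and Cth not kept). Of the 14, 12 had positive and 2 negative differences (median 0.15), and 3 had higher values at an unadjusted p under 0.05. Over all genes 54.8% had positive differences and 3.97% were higher at that p. These were the one-carbon enzyme gene Mthfd2 (0.63 ± 0.16) and the serine synthesis genes Psat1 (0.54 ± 0.15) and Phgdh (0.36 ± 0.14, and 0.23 without USP8ff replicate 2), and 0 of the 14 passed after adjustment. The differences of the 4 transporters were 0.42, 0.35, 0.05 and 0.03 in the order above. Slc7a11, another transporter that ATF4 is known to regulate, went the other way (-0.64 ± 0.24).

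Upstream sequence was at hand for 6 of the 10 members, as 8 windows of the 250 bases before a start site (RefSeq, GRCm38.p6). The windows were searched on both strands for the E-box CACGTG, which MYC binds, the core ACGTG of hypoxia response elements (each E-box holds it too), the letters TGATGNAA of the element that ATF4 and C/EBP factors share, and the core TATAAA of a TATA box. The E-box was found in 1 window of the 8, against 6.02% of 32851 windows of all genes, ACGTG in 5 (16.6%), TGATGNAA in 0 (3.45%) and TATAAA in 1 (12.4%). Windows of 1 gene can overlap, and a match is not a binding site.

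Both Slc7a1 windows are shown because this gene had the smallest p among the members, and those of Slc16a1 and Slc2a1 because they hold the E-box and ACGTG. Capitals mark TATAAA in the first, CACGTG in Slc16a1 and ACGTG in Slc2a1, and the other Slc7a1 window holds none of the 4.
Slc7a1, inner start, chr5:148392816-148393065, minus strand: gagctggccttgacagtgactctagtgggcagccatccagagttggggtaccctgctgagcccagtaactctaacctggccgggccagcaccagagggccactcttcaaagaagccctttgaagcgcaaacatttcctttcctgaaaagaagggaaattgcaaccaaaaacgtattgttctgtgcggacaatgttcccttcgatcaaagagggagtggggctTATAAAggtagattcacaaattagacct
Slc7a1, outer start, chr5:148399905-148400154, minus strand: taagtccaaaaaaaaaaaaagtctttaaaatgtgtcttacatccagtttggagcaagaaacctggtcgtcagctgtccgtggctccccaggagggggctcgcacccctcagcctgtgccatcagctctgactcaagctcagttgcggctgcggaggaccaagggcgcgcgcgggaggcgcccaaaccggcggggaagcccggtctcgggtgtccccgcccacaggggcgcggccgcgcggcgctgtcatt
Slc16a1, chr3:104638414-104638663, plus strand: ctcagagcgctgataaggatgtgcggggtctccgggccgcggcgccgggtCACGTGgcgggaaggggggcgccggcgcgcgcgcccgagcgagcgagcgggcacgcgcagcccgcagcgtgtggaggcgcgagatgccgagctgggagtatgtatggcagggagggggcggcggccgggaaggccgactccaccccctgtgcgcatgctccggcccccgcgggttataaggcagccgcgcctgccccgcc
Slc2a1, chr4:119108495-119108744, plus strand: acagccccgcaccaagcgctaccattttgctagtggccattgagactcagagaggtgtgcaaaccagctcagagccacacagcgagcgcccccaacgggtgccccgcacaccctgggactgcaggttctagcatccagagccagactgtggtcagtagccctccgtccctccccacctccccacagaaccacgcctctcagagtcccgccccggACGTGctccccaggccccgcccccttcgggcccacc

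Markers of the cells in the pools were measured beside the transporters. All 12 DP thymocyte markers were measured, 3 with positive and 9 with negative differences (median -0.11), and their summed signal, in multiples of the 75th percentile, was 1707 and 1788 in USP8ff and 1788 and 1811 in USP8ff_CD4Cre. Most of each DP sum is Dntt (0.10) and Cd8b1 (0.09), both among the 3 positive ones and chosen after their values were seen. All 18 markers of proliferating cells had positive differences (median 0.49, 8 of them at an unadjusted p under 0.05, against 54.8% positive and 3.97% higher at that p over all genes), with sums of 646 and 576 in USP8ff and 725 and 894 in USP8ff_CD4Cre. These sums were highest in USP8ff_CD4Cre replicate 2 and lowest in USP8ff replicate 2. Of the members, Slc7a1, Slc7a5 and Slc38a2 were likewise highest in USP8ff_CD4Cre replicate 2 and lowest in USP8ff replicate 2, and the others were not. Of the measured ATF4 targets that are not transporters, this order held for Mthfd2, Psat1, Phgdh, Shmt2 and Sars. The share of all genes with this order was not counted, and the part of proliferation in these values was not tested.

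Of the 10 markers of mature single-positive thymocytes 9 were measured, with sums of 158 and 173 in USP8ff and 157 and 161 in USP8ff_CD4Cre. Of these, 6 were well above background on all 4 arrays, among them Ccr7 with a difference of -1.24 and Klf2 with 0.23. The other 3, Il7r, Itgae and Gimap4, were kept through USP8ff alone, and no USP8ff_CD4Cre array had them well above background. The macrophage and dendritic cell markers summed to 2.31 and 2.60 in the control pools and 1.37 and 1.71 in the others (6 measured of 13 on the array, Csf1r, Adgre1 and Itgam not kept). Ctss and Lyz2 make up most of each of these sums. Of the 6, 1 had a positive and 5 had negative differences (median -0.15). Ctss (-1.96) and Mpeg1 (-1.09) were lower at an unadjusted p under 0.05, against 3.46% of all genes. Lyz2 had -0.19, Cd68 -0.12 and Lyz1 -0.06, and C1qb, kept through USP8ff_CD4Cre alone, had 0.25. Of 9 markers of NK, gamma-delta T and other innate cells, 5 were measured (Ncr1 and Klrb1c not kept), 2 with positive and 3 with negative differences (median -0.86). With the control pools first, their sums were 4.28 and 4.37 against 3.94 and 5.29. Most of each sum is Gzma (0.42). Nkg7 (-2.09) and Prf1 (-0.86) were lower at an unadjusted p under 0.05 (3.46% of all genes), without overlap of the pools (16.3%). Il2rb (-2.02) was kept through USP8ff alone, with 1 USP8ff_CD4Cre array well above background. The marker genes given with values in this paragraph were chosen after those values were seen. For B cells they were 6.62 and 6.16 against 6.08 and 5.17 (2 of 6, Pax5 not kept), and for erythroid cells, whose precursors also carry glucose transporters, 1.32 and 1.056 against 1.09 and 0.80 (3 of 8, Alas2 not kept). Most of the erythroid sum is Car2 (-0.70), while Hba-a2, an alpha globin gene, had -3.24 and -3.18 in the control pools against -3.21 and -1.58. For thymic stroma they were 1.78 and 1.81 against 1.61 and 1.71 (5 of 12, Foxn1 and Pdgfra not kept), and the granulocyte list kept 1 of 7 genes, with 0.103 and 0.104 against 0.0935 and 0.0941. The part of these cells in the transporter values was not tested.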

How the data were processed

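Per the labels, 500 ng of RNA per pool gave Cy3-labelled cRNA for Agilent arrays of 1 colour. Per the file headers, spots were read with Feature Extraction 10.7.3.1 and placed on mm9; the deposited intensity values are background-subtracted and detrended within each array. The authors' deposited table gives a fold (ratio) and a p-value per probe, but the sources used here do not name its test or its reference genotype. Left out was a table with 4 columns of values, since the labels do not name those columns.

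Log2 processed signals were set against the 75th percentile of each array's 43379 non-control spots, outlier spots were left out (17 probes lost) and spots of a probe averaged. A probe was kept where 1 genotype or both had it well above background on 2 arrays, and the kept probe with the highest mean stood for its gene. RefSeq accessions named 26690 probes; 14484 kept the design name. The test between genotypes was limma 3.58.1's in R 4.3.3 (lmFit, eBayes, two-sided, Benjamini-Hochberg over all genes or probes, threshold 0.05), checked on simulated data. Intervals are 95% intervals of the moderated fit. Named beside the members were the up to 3 list genes with the smallest p. Members and lists were chosen with earlier results of these data known. Alternatives were other scalings, background, filters, probe rules, a replicate block, an eBayes trend, outlier spots kept and each array left out. Upstream windows came from a RefSeq table. Figures used matplotlib 3.10.9 in Python 3.11.15.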

Additional observations from a re-analysis of the deposited data

How the results depend on the processing

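With 2 pools per genotype and a moderated spread, the members' intervals are wide, and no member passed adjustment in any of the 14 other settings; 0 genes were called in any of them. The count of members at an unadjusted p under 0.05, 1 as reported, was 2 with quantile normalization, with the filter on all 4 arrays and with the mean of probes, 0 with median scaling and with no filter, and from 0 to 2 with single arrays left out. The second was Slc7a5 in each case. The count over all genes, 970, ran from 396 to 1229 with arrays left out.

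Signs near 0 changed. With quantile normalization the difference of Slc3a2 was -0.0080 and that of Slc38a2 -0.048; with the mean of probes Slc38a2 had -0.036, Slc7a6 0.0011 and Slc16a1 -0.013. With single arrays left out, the range was -0.29 to 0.092 for Slc2a1, -0.69 to 0.32 for Slc1a5, -0.078 to 0.19 for Slc3a2, -0.11 to 0.37 for Slc38a1, -0.0074 to 0.075 for Slc38a2 and -0.085 to 0.070 for Slc7a6. Among the other named genes it was -0.89 to 0.55 for Slc2a9 and -0.43 to 0.61 for Slc2a4. In all, 18 of 406 named-gene differences changed sign; the cause was not tested.

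The groups share replicate numbers, but nothing in the labels says that a number pairs the pools. With the replicate block 1338 genes had an unadjusted p under 0.05, 1 of them a member, and 0 genes were called. Gaps between pools correlated at 0.32 between genotypes over 13062 genes, which are not independent, and at 0.78 over the 10 members, which share the same 4 arrays. The widest of the members' gaps were those of Slc1a5 (0.69 and 1.004), and the correlation without this gene was not computed.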
